A study of Mus musculus with 7 samples.

Results

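The 8 genes described here, Sox10, Tfap2a, Ngfr, Erbb3, L1cam, Cdh19, Gap43 and Mbp, mark the neural crest and its Schwann cell lineage. They were chosen by name: every array probe that the scanner files assign to one of these symbols was taken, which gave 11 probes for 8 of the 34947 gene names on the array. RNA of 7 mouse cell populations was hybridised to 1 array each, in a study that, by its title, traces dermal myogenic precursors to satellite cells of muscle. The Sdc4+ group holds the Myf5SOR+, Cspg4- and CD1 populations that carry the label Sdc4+, the Sdc4- group holds the B195AP+, Cspg4- and CD1 populations labelled Sdc4-, and a single Cspg4+ population has no Sdc4 label. The labels give 8 to 10 animals per phenotype, so each array stands for several animals. Sdc4 is syndecan-4, a surface proteoglycan found on muscle satellite cells.

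The labels describe lineage tracing with Cre drivers. Myf5SOR+ stands for strain B6.129S4-Myf5tm3(cre)Sor/J, in which Cre was knocked into Myf5, a regulator of the muscle lineage. The Cspg4- and Cspg4+ populations come from B6,FVB-Tg(Cspg4-cre)1Akik/J, a transgene whose Cre is driven by the pericyte and glial progenitor gene Cspg4. CD1 is the outbred strain Crl:CD1(ICR), and the promoter behind B195AP-Cre is not named in the labels. The labels give neither the sex and age of the animals nor how cells were sorted or grown. Where the Sdc4 label meets 2 populations of the same line (Cspg4- and CD1), a comparison within the line was also made.

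Neural crest cells leave the dorsal neural tube and give rise to Schwann cells, melanocytes and sensory neurons, among others. Schwann cell precursors follow growing axons into the skin, where neuregulin from the axon acts on the ErbB3 receptor and Sox10 sustains the glial programme. Schwann cells then either form myelin or remain non-myelinating and keep immature markers such as the neurotrophin receptor p75 (Ngfr), Gap43 and L1cam, which also return after nerve injury.

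Levels are given as log2 of the processed signal minus the array's 75th percentile, so that 0 is the signal which 3 in 4 probes of an array do not exceed. The scanner software's call "well above background" was used for detection, and the lowest detected level lay between -4.25 and -3.39 depending on the array. Between 45.9% and 50.8% of spots were well above background on 6 arrays and 57.2% on the Cspg4+ array, where 4181 probes (7.51%) were detected that no other array detected, against 98 to 545 on the others. The B195AP+ array carried 689 outlier spots, 607 of them in a streaked region that holds 41.3% of its spots, against 137 to 168 outlier spots on the other arrays. Of the 20 spots of the 8 genes, 7 lie in that region, among them the only spots of Tfap2a probe 1, Erbb3, Gap43 and Mbp probe 1. The Sdc4 transcript itself did not follow the labels on every array: its level was 4.0 on the Myf5SOR+ Sdc4+ array, below 5.30 and 5.49 on the Cspg4- and CD1 Sdc4- arrays, while the Cspg4- and CD1 Sdc4+ arrays stood at 6.49 and 6.56 and the B195AP+ array at 2.17. Cspg4 was highest on the B195AP+ array (2.19) and stood at 1.34 on the Cspg4+ array. The library labelled Myf5SOR+ Sdc4+ and the B195AP+ array were therefore also left out in turn.

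Of the 8 genes, 2 (Tfap2a and Gap43) were well above background on 7 arrays and 5 (these and Ngfr, L1cam and Mbp) on at least 3, which was the condition for testing. Sox10 was detected on 1 array, and Erbb3 and Cdh19 on none. The order of abundance cannot be read from signals of different probes, so each gene was compared with itself.

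**Figure D1:**
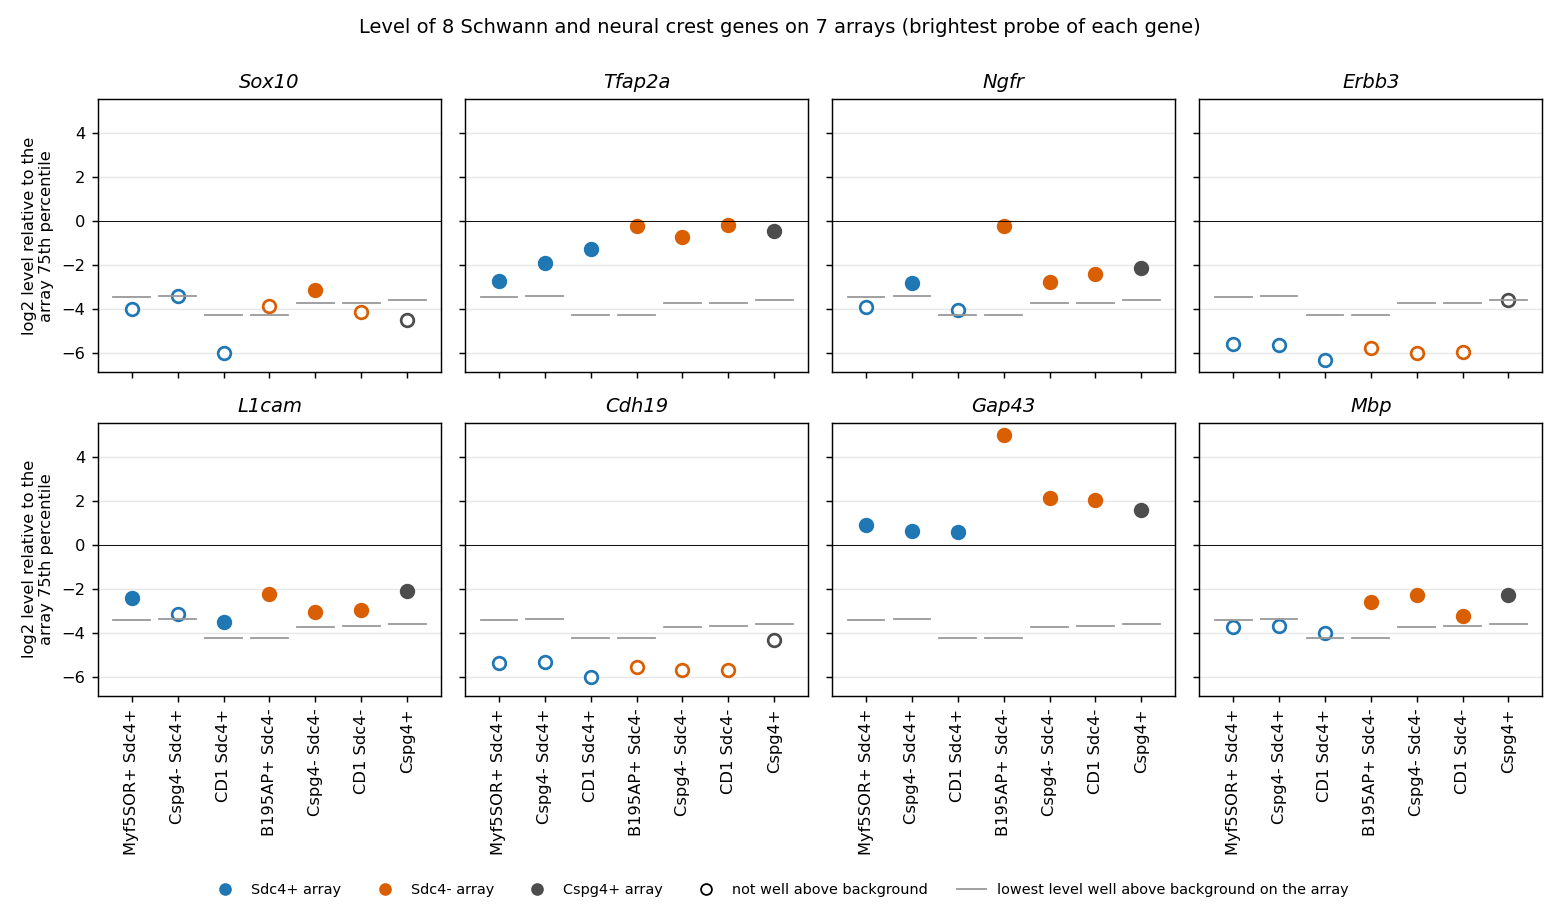
Log2 level relative to the array 75th percentile (vertical axis) of the brightest probe of 8 genes on 7 arrays (horizontal axis), coloured by group. Filled points were well above background and open points were not, and grey lines mark the lowest detected level of the array. Gap43 and Ngfr peak on the B195AP+ array, and the Erbb3 and Cdh19 points are open on 7 arrays.

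Sox10 encodes the transcription factor that is required for crest-derived glia and pigment cells and is the defining marker of the Schwann lineage. Its probe, A_55_P2094729 at chr15:78985518-78985577 on the minus strand of mm9, read -4.00, -3.38 and -6.00 on the Myf5SOR+, Cspg4- and CD1 Sdc4+ arrays. The Sdc4- levels were -3.87 (B195AP+), -3.13 (Cspg4-) and -4.13 (CD1), and the Cspg4+ level was -4.48. The Cspg4- Sdc4- array alone passed the background call, with a signal of 17.8 from a single spot. That level was 1.19-fold above the undetected level of the Cspg4- Sdc4+ array, so the call and its absence lie close together, and Sox10 was not tested. Of the other Schwann markers, Foxd3 was not well above background on any of the 7 arrays, whereas S100b was on 7.

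Tfap2a encodes AP-2 alpha, a transcription factor of the early crest that epidermal cells also use. Probe 1 (A_55_P1964812, chr13:40811044-40811103, minus strand, mm9), which the files place at base 3054 of its transcript, was detected on every array. Its level was -2.73, -1.89 and -1.26 on the Myf5SOR+, Cspg4- and CD1 Sdc4+ arrays. On the Sdc4- arrays it was -0.23 (B195AP+), -0.71 (Cspg4-) and -0.16 (CD1), and on the Cspg4+ array -0.43. The 3 Sdc4+ arrays were the lowest of the 7, without overlap. The mean was -1.96 ± 0.74 (SD, n = 3) in the Sdc4+ group and -0.37 ± 0.30 (SD, n = 3) in the Sdc4- group. Sdc4+ was 3.01-fold lower, a log2 difference of -1.59 (SE 0.39), which did not pass limma's test over all genes (adjusted p = 0.464) and was -0.74 after normexp background correction.

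The second Tfap2a probe (A_55_P2199463, chr13:40829040-40829099, minus strand, mm9) lies near the other end of the gene, at base 93 of a transcript other than the one given for probe 1. It is printed because it did not follow probe 1: from base 11 on it holds a frame of 16 codons without a stop, whose first ATG is in capitals.
Tfap2a probe 2, bases 11 to 60: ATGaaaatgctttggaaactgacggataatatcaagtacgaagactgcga
This probe was detected on 2 arrays, Cspg4- Sdc4+ at 0.94 (signal 213.8) and Cspg4+ at -3.03 (signal 18.9). On the other 5 arrays it lay between -6.19 and -5.48. Within the Cspg4 line, probe 2 was thus at least 25.4-fold higher on the Sdc4+ than on the Sdc4- array, while probe 1 was 2.27-fold lower there. Each probe is represented by 1 spot, and neither was saturated.

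Ngfr encodes p75, the low-affinity neurotrophin receptor of crest cells and immature Schwann cells, which other skin cells can also carry. Its probe (A_52_P236448, chr11:95430211-95430270, minus strand, mm9) was spotted 10 times on each array, so a spread within arrays can be given. On the Sdc4+ arrays the mean level over spots was -3.89 (Myf5SOR+), -2.83 (Cspg4-) and -4.04 (CD1), and only the Cspg4- array passed the background call. On the Sdc4- arrays it was -0.20 (B195AP+), -2.74 (Cspg4-) and -2.41 (CD1), and on Cspg4+ -2.13, and these 4 arrays were detected. The groups did not overlap, but the Cspg4- Sdc4+ and Sdc4- levels differed by less than the SD between their spots (0.155 and 0.301).

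The B195AP+ array stood apart for Ngfr. Its median spot signal was 127.6 (102.7 to 132.9 over 8 spots), and the highest spot on any other array was 42.1. The level was 3.81-fold above the next array (Cspg4+) and 5.99-fold above the median of the other 6. Spots inside the streaked region had a geometric mean of 115.2 and those outside it 124.7, so the high reading was present in both. Among the genes with such a comparison, 1.42% stood at least 2-fold above every other array on B195AP+, and Gap43 and Ngfr were among them.

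**Figure D2:**
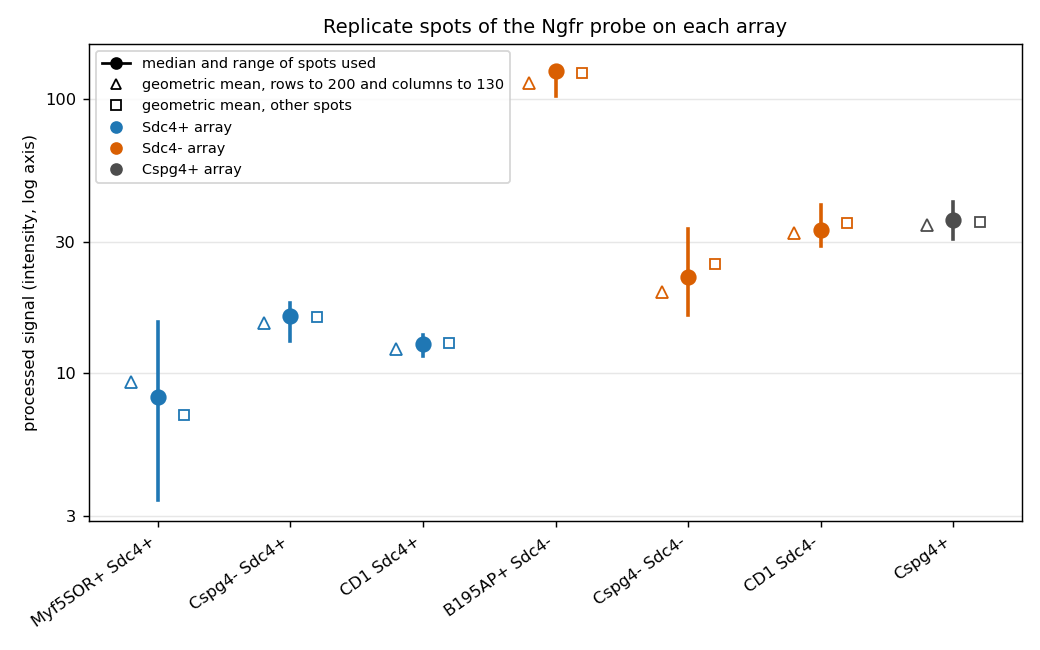
Processed signal (vertical log axis) of the repeat spots of the Ngfr probe on 7 arrays: the filled point is the median and the bar the range of the spots used. Triangles and squares give the geometric means inside and outside the rows and columns that are streaked on the B195AP+ array, and the B195AP+ spots lie above those of the other arrays in both places.

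Between the groups, Ngfr had a mean of -3.58 ± 0.66 (SD, n = 3) on Sdc4+ and -1.79 ± 1.38 (SD, n = 3) on Sdc4- arrays, which differed by -1.80 log2 units (SE 0.70; adjusted p = 0.55 in limma). Without the B195AP+ array the difference was -1.01, and after normexp background correction -0.47. Within CD1 the Sdc4+ array was at least 3.09-fold lower, since Ngfr was not detected there. Within the Cspg4 line the difference was -0.09. It ran from -0.15 to 0.17 over 5 alternatives, of which 3 kept its direction.

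Erbb3 encodes the receptor through which axonal neuregulin acts on Schwann cell precursors. Its single probe (A_55_P2119897, chr10:128006424-128006483, minus strand, mm9) is shown because it covers the 3′ end of an open reading frame: 19 codons lead to a stop codon, in capitals.
Erbb3 probe 1: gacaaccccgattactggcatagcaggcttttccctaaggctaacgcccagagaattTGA
The level was -5.57, -5.64 and -6.31 on the Myf5SOR+, Cspg4- and CD1 Sdc4+ arrays. It was -5.75, -6.00 and -5.93 on the B195AP+, Cspg4- and CD1 Sdc4- arrays. The Cspg4+ array read -3.57, next to that array's lowest detected level of -3.59, and still failed the background call. Erbb3 was therefore not well above background on any of the 7 arrays, and no fold is given. Of its partners in neuregulin signalling, Erbb2, the co-receptor, was detected on 7 arrays between -0.23 and 0.32.

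L1cam encodes an adhesion molecule of axons and non-myelinating Schwann cells. Its probe (A_55_P2100555, chrX:71100374-71100433, minus strand, mm9) also ends on the stop codon (capitals) of a frame of 19 codons.
L1cam probe 1: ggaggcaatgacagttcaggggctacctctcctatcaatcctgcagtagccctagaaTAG
Its level was -2.44, -3.16 and -3.49 on the Myf5SOR+, Cspg4- and CD1 Sdc4+ arrays, the second not well above background. It was -2.25, -3.07 and -2.97 on the B195AP+, Cspg4- and CD1 Sdc4- arrays, and -2.10 on Cspg4+, the array on which 13.2% of all genes tested had their highest level. The groups overlapped, and the total range over 7 arrays was 2.63-fold. This was the narrowest of the 8 genes, with readings not well above background included. The log2 difference of Sdc4+ from Sdc4- was -0.27 (SE 0.35, limma adjusted p = 0.848).

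Cdh19 encodes a cadherin that marks Schwann cell precursors. Its probe (A_66_P109397, chr1:112785846-112785905, minus strand, mm9) was not well above background on any of the 7 arrays. Levels ran from -6.01 to -5.35 on the Sdc4+ and from -5.72 to -5.56 on the Sdc4- arrays. The Cspg4+ array read -4.34, below its own lowest detected level, and readings under that level have no order.

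Gap43 encodes a growth cone protein of neurons that Schwann cell precursors and denervated Schwann cells also make. Its probe (A_55_P2096867, chr16:42248714-42248773, minus strand, mm9) was well above background on 7 arrays. On the Sdc4+ arrays its level was 0.92 (Myf5SOR+), 0.61 (Cspg4-) and 0.58 (CD1). On the Sdc4- arrays it was 4.98 (B195AP+), 2.12 (Cspg4-) and 2.04 (CD1), and on Cspg4+ 1.57. The 3 Sdc4+ levels were the lowest and lay close together, the Cspg4+ level came next, and B195AP+ stood 7.26-fold above the next array and 13.4-fold above the median of the other 6. The single B195AP+ spot, with a signal of 4413, lies in the streaked region.

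For Gap43 the group means were 0.70 ± 0.18 (SD, n = 3) and 3.05 ± 1.68 (SD, n = 3), so Sdc4+ was 5.08-fold lower, or -2.35 in log2 units (SE 0.77; adjusted p = 0.513 in limma). Without the B195AP+ array the difference was -1.38, with an SE of 0.20 and an adjusted p of 0.615 from limma. Within the Cspg4 line Sdc4+ was 2.85-fold lower, and within CD1 2.75-fold lower. At least 2-fold lower readings within a line were made for 3.65% of the genes compared in the Cspg4 line and for 2.55% in CD1. Tfap2a was 2.27-fold and 2.14-fold lower in the same comparisons, and Mbp at least 2.15-fold and 1.73-fold lower. After normexp the log2 difference in the Cspg4 line was -0.43 for Tfap2a and -0.14 for Mbp. Within CD1 that of Mbp was -0.29 after normexp and 0.12 with the mean of its probes detected on at least 3 arrays.

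Mbp encodes myelin basic protein of compact myelin, and the same locus makes golli proteins from an upstream start, also outside myelinating glia. It has 3 probes. Probe 1 (A_52_P329451) spans 2305 bases of chromosome 18 for its 60 bases, so it crosses a splice junction. Its level was -3.74, -3.71 and -4.02 on the Myf5SOR+, Cspg4- and CD1 Sdc4+ arrays, none of them well above background. On the Sdc4- arrays it was detected at -2.61 (B195AP+), -2.29 (Cspg4-) and -3.23 (CD1), and on Cspg4+ at -2.30. The groups did not overlap, and Sdc4+ was at least 1.87-fold lower than Sdc4- (fitted log2 difference -1.11, SE 0.28, limma adjusted p = 0.471). For each dim array the bound takes the higher of its own reading and its lowest detected level. After normexp background correction the difference was -0.16.

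Mbp probe 2 (A_52_P604195) gave another order. It was highest on the CD1 Sdc4+ array (-2.37) and lowest on Myf5SOR+ (-5.22, not detected). The Cspg4- Sdc4-, CD1 Sdc4- and Cspg4+ arrays were detected at -3.03, -3.39 and -3.27, and Cspg4- Sdc4+ (-3.27) and B195AP+ (-3.58) were not. The groups overlapped for this probe, at means of -3.62 ± 1.46 and -3.33 ± 0.28 (SD, n = 3 each). Probe 3 (A_55_P1992160) was detected on the Cspg4+ array alone, at -3.0, and lay between -5.61 and -4.64 on the other 6. When probes 1 and 2, those detected on at least 3 arrays, were averaged, the log2 difference was -0.70 (limma adjusted p = 0.648).

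**Figure D3:**
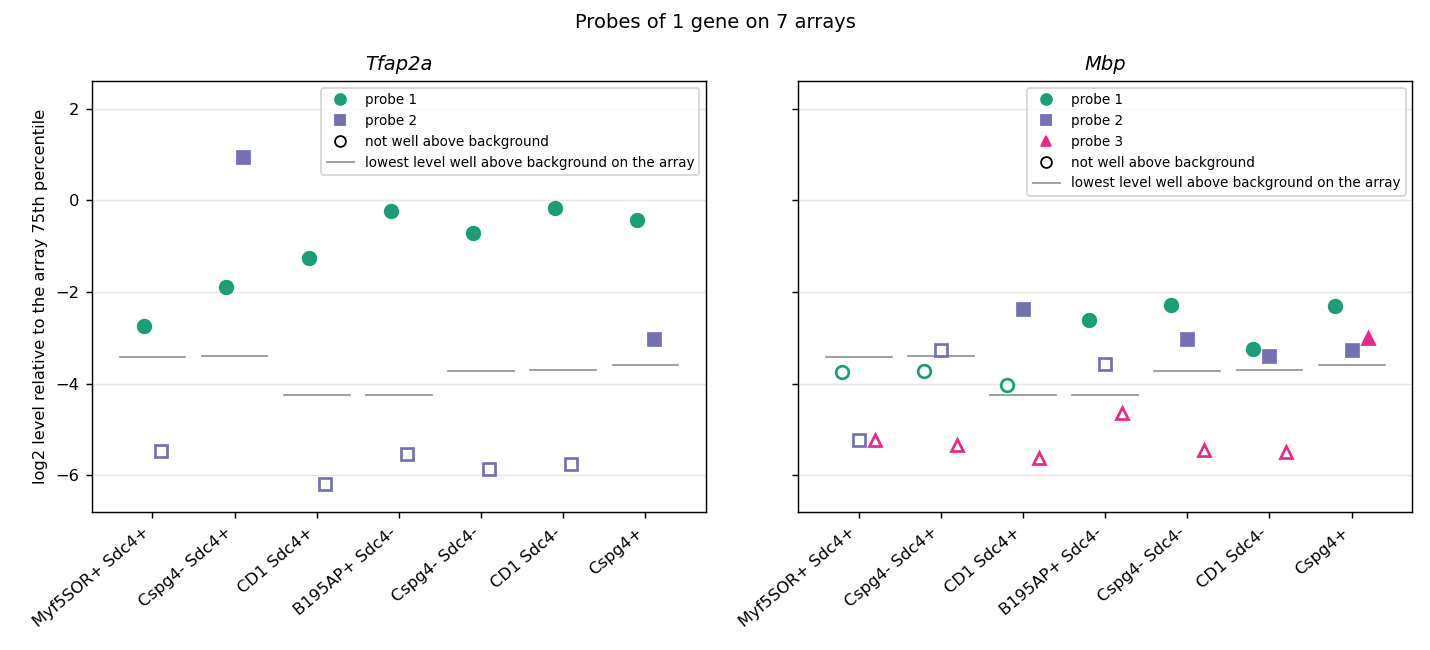
Log2 level relative to the array 75th percentile (vertical axis) of the 2 Tfap2a probes and the 3 Mbp probes on 7 arrays (horizontal axis). Filled symbols were well above background and open symbols were not. Tfap2a probe 2 reads 0.94 on the Cspg4- Sdc4+ array, and Mbp probe 3 is filled on the Cspg4+ array alone.

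Set side by side by the brightest probe of each gene, Tfap2a, Ngfr, Gap43 and Mbp were lower on every Sdc4+ array than on any Sdc4- array. That is 4 of the 8 genes, and the other probes of Tfap2a and Mbp overlapped between the groups. Among all 19760 genes tested 9.6% were lower without overlap, and 6.4% were higher. Ngfr and Mbp entered the test through the arrays on which they were high, so their place in this count follows in part from the condition for testing. No gene on the array passed an adjusted p of 0.05 in limma (0.0% called; 1741 genes had an unadjusted p under 0.05, and the 1064 of them that were lower on Sdc4+ are 5.38% of all genes tested). The arrays of a group come from different lines, and the Sdc4+ arrays all lay in row 1 of the slide and the others in row 2, so slide row and Sdc4 label cannot be told apart. With the line as a fixed block the differences were -1.14 for Tfap2a, -0.86 for Ngfr, -1.48 for Gap43 and -1.11 for Mbp. This block leaves 1 residual degree of freedom. Myf5SOR+ and B195AP+ are each the only array of their line, so these values average the differences within the Cspg4 line and within CD1. With the streaked spots left out the differences of the 4 genes were -1.52, -1.81, -1.38 and -1.06, in the same order. This left Tfap2a, Gap43 and Mbp without a B195AP+ value, as in the fit without that array. With the line as a random block the adjusted p of the 4 genes from limma was 0.149, 0.322, 0.201 and 0.138. No other alternative gave a smaller one for these 4 genes. Without the library labelled Myf5SOR+ Sdc4+ the differences were -1.21, -1.65, -2.45 and -1.16.

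**Figure D4:**
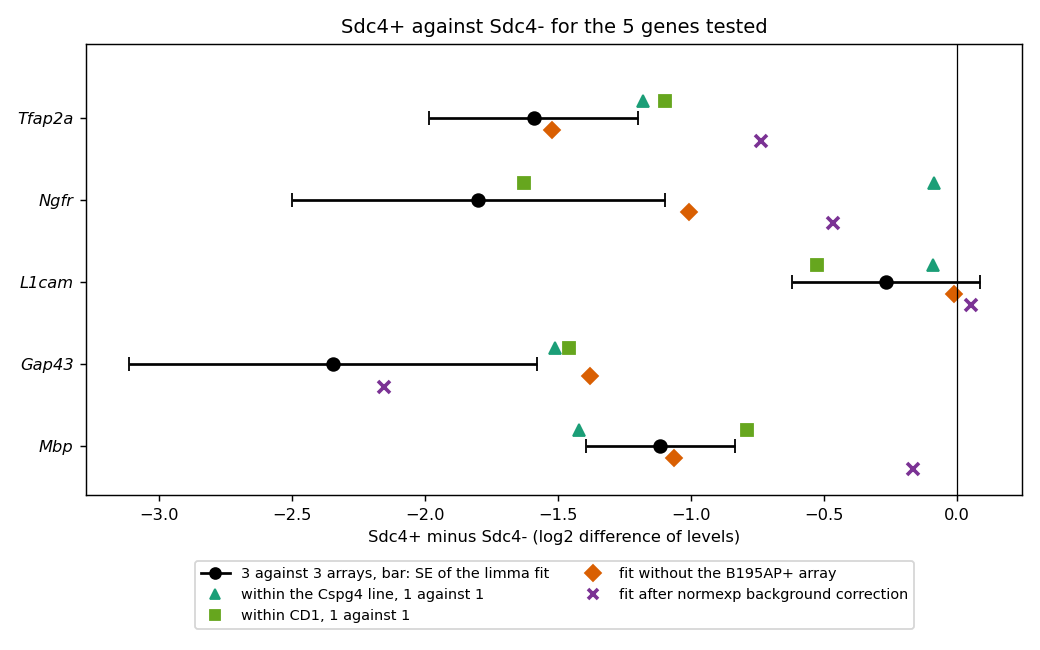
Log2 difference of Sdc4+ from Sdc4- (horizontal axis) for the 5 genes tested (vertical axis): black points with SE bars are the fit of 3 against 3 arrays. Triangles and squares are the 1 against 1 differences within the Cspg4 line and CD1, diamonds the fit without the B195AP+ array and crosses the fit after normexp background correction. Gap43 and Ngfr move towards 0 without B195AP+, and Ngfr, Mbp and Tfap2a do so after normexp.

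Muscle genes differed in the same contrast. Of 12 skeletal muscle genes such as Myog, Ttn and Actn2, 11 were tested and 11 were lower on Sdc4+ without overlap, and none passed the adjusted threshold in limma. They entered the test largely through the Sdc4- arrays: 9 fell below the background call on at least 1 Sdc4+ array, and Ttn, Actn2 and Mybph were detected on no Sdc4+ array. With those 3 genes at their bounds the median log2 difference was -3.07. The sum of their levels, as multiples of the array's 75th percentile, was 0.842 to 2.20 on Sdc4+, 7.49 to 41.4 on Sdc4- and 2.75 on Cspg4+ arrays. Pax7 and Myf5 were not well above background on any of the 7 arrays, and Myod1 was detected on CD1 Sdc4- alone. The part of muscle RNA in the member genes' differences was not tested. In RNA from mixed cells, fewer cells of a type and less RNA per cell cannot be told apart.

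The Cspg4+ population has 1 array, which the fit assumes to vary like the others. Against the Sdc4+ arrays its difference was 1.52 for Mbp (at least 2.48-fold higher, SE 0.40, limma adjusted p = 0.433), 1.53 for Tfap2a (SE 0.55, adjusted p = 0.576) and 1.45 for Ngfr (SE 0.99, adjusted p = 0.855). L1cam differed by 0.93 (SE 0.50) and Gap43 by 0.87 (SE 1.09). After normexp these differences were 0.31 for Mbp, 0.71 for Tfap2a and 0.28 for Ngfr. That of Mbp was 0.84 in the series table, 0.99 after quantile normalization and 0.94 with the mean of its probes 1 and 2. Its level lay above the 3 Sdc4+ arrays for these 5 genes, as it did for 31.2% of all genes tested, and 0.0% were called by limma, with 1549 genes at an unadjusted p under 0.05. Against the Sdc4- arrays the Gap43 difference was -1.48 (SE 1.09) and that of L1cam 0.67 (SE 0.50), each with a limma adjusted p of 1.0. Tfap2a, Ngfr and Mbp lay within the range of the Sdc4- arrays, and again 0.0% of genes were called, with 727 at an unadjusted p under 0.05. The comparisons share arrays, so they are not independent of each other.

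The other genes of the lineage were followed in lists named by role. Of 12 immature Schwann genes 7 were tested, 6 lower and 1 higher on Sdc4+, with a median difference of -0.74 against -0.05 over all genes. Sox2, a repressor of myelination in immature Schwann cells, was detected on the B195AP+, CD1 Sdc4- and Cspg4+ arrays and on no Sdc4+ array. With its Sdc4+ readings raised to the lowest detected level of their arrays, Sox2 was 1.41-fold lower on Sdc4+ and the list median was -0.49. This fold is not a lower bound, since the Sdc4- mean includes the undetected Cspg4- Sdc4- reading (-3.64). The Sox2 difference after normexp was -0.22. The adhesion molecule Ncam1 (-1.19, SE 0.58), the intermediate filament gene Nes (-1.08, SE 0.67) and the calcium-binding S100b (-0.74, SE 0.44) had negative differences too. Without the B195AP+ array Ncam1 was at -0.56 and Nes at -0.42, and without the CD1 Sdc4+ array S100b was at -0.33. Of 17 myelin genes 10 were tested, 7 higher and 3 lower (median 0.07), with Ncmap at 0.60. Of 16 crest regulators 13 were tested, 5 higher and 8 lower (median -0.07): Tfap2c, the paralogue of Tfap2a, was at -1.51 (SE 0.56) and Sox9 at 0.63. None of these genes passed an adjusted p of 0.05 in limma, and the smallest was 0.435 for Sox2.

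Among the signalling partners, 4 of 7 neuregulin genes were tested (3 higher, 1 lower, median 0.19), with the ligands Nrg1 at 0.84 and Nrg2 at -1.11. Nrg2 was detected on 1 Sdc4+ and 2 Sdc4- arrays, and its difference after normexp was -0.07. Of 12 neurotrophin genes 9 were tested (5 higher, 4 lower, median 0.17): the Nogo receptor gene Rtn4r was at 1.61 (SE 0.62). Rtn4r was not detected on the B195AP+ array, and its difference was 0.89 without that array and 0.48 after normexp. The family of L1cam and its partners had 6 of 8 genes tested, 5 higher and 1 lower on Sdc4+, with a median of 0.91. The differences of the close homologues of L1cam were 1.66 for Chl1, 1.21 for Nrcam and 1.05 for Nfasc, and with the line as a fixed block 0.59, 0.99 and 0.0324. Cntn1, a contactin, was at -1.84 (SE 0.38) and at -0.63 after normexp. Of 13 other cadherins 5 were tested (1 higher, 4 lower, median -0.25), among them Cdh22 at -0.87 and N-cadherin, Cdh2, at -0.61. Of 10 growth cone genes 8 were tested (1 higher, 7 lower, median -0.30), with Dpysl3 at -1.30, Crmp1 at -0.94, Stmn1 at -0.84 and Marcksl1 at 0.58. None of them passed limma's adjusted p of 0.05.

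Lists of other cell types were counted beside these. Of 10 melanocyte genes 7 were tested, 5 higher and 2 lower on Sdc4+ (median 0.87). Kit was at 2.28 (SE 0.72), Mlana at 1.61, Gpnmb at 0.89 and Dct at 0.87. The 2 lower genes were Pmel at -0.50 and Tyr at -0.45. Dct was detected on 1 Sdc4+ and 1 Sdc4- array, both CD1, at -3.27 and -2.95, and its difference after normexp was 0.16. None of these genes passed limma's adjusted p of 0.05, and Tyrp1 was not detected on any of the 7 arrays. Kit was at 1.42 without B195AP+ and 0.66 after normexp, and Mlana at 0.56 without the Cspg4- Sdc4+ array and 0.37 after normexp. Of 8 neuron genes 2 were tested, both lower, and Rbfox3 was not detected on any of the 7 arrays. Nefl was detected on no Sdc4+ array and was at least 3.11-fold lower there, with a difference of -0.94 without B195AP+ and -0.54 after normexp. The medians were -0.33 over 6 fibroblast genes, 0.12 over 5 mural genes, -0.17 over 3 keratinocyte genes, -0.43 over 2 endothelial genes and 0.54 over 3 leukocyte genes, and Ptprc was not detected on any of the 7 arrays. Of the 25 genes named from these lists by size of difference, 14 differences moved by over 1.5 times after normexp and 20 when 1 array was left out (12 without B195AP+). The part of these cell types in the members' levels was not tested.

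**Figure D5:**
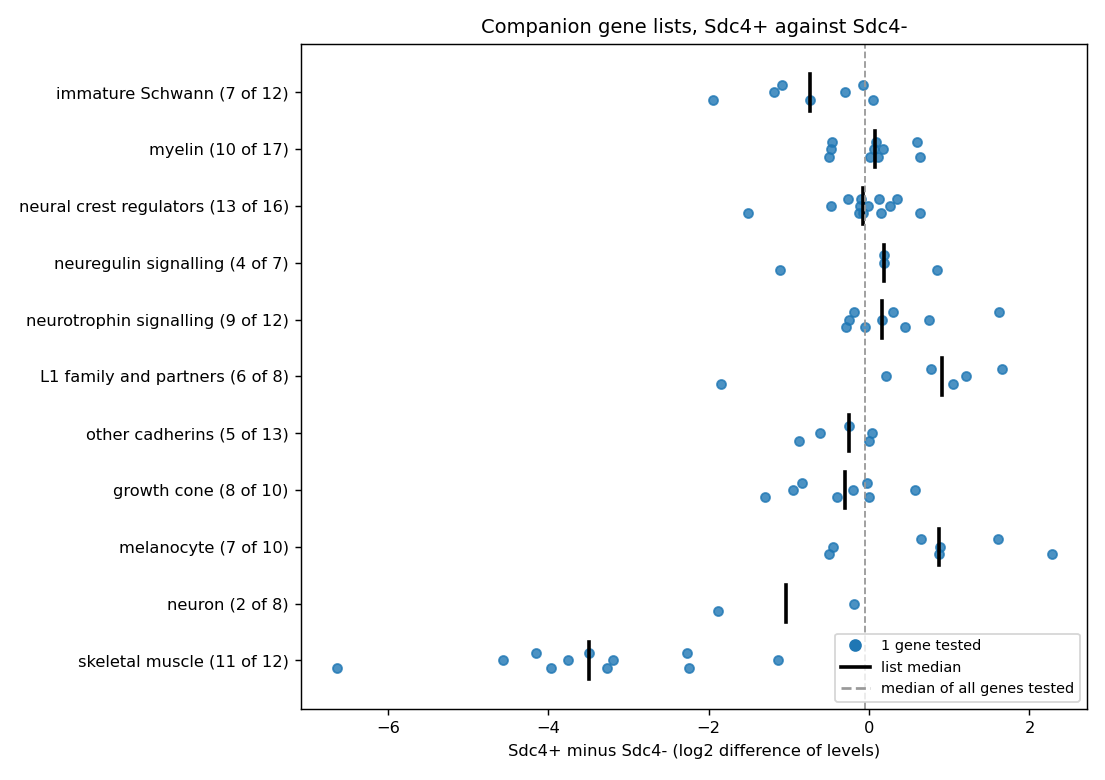
Log2 difference of Sdc4+ from Sdc4- (horizontal axis) of each tested gene of 11 lists (vertical axis, with the number tested of those listed), readings below background included. Black bars are list medians and the dashed line is the median of all genes tested, -0.05. The skeletal muscle list lies to the left, and the L1 family list lies to the right apart from Cntn1.

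Finally, the genes whose pattern over the 7 arrays was most like that of each tested member were looked up by Pearson correlation. These are descriptions over 7 points that share a slide and a scan. Gap43 was closest to Dpysl3 (r = 0.992), which encodes a growth cone phosphoprotein, then Sh3bgrl2 (0.959) and Traip (0.957). Dpysl3 read 2.81, 2.68 and 2.40 on the Myf5SOR+, Cspg4- and CD1 Sdc4+ arrays, 5.20, 3.25 and 3.34 on the B195AP+, Cspg4- and CD1 Sdc4- arrays and 3.08 on Cspg4+. Its order thus has B195AP+ at the top and Sdc4+ at the bottom, as for Gap43. Ngfr was closest to the inositol transporter gene Slc5a3 (0.988), the histone gene H4c3 (0.984) and the potassium channel gene Kcnk3 (0.983). Kcnk3 read 0.84 on B195AP+ and -4.45 to -1.95 on the other 6 arrays. Of all genes tested, 36.9% were highest on the B195AP+ array, which is the array of the highest level of both Ngfr and Gap43.

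Tfap2a was closest to Tmem132c (r = 0.984), Arhgef39 (0.983) and Phf19 (0.982), and 22 genes correlated with it above 0.95. L1cam was close to Spata24 (0.983) and 4930563E22Rik (0.973). Mbp was closest to Zfp217 (0.993), Dars (0.992) and Mamdc4 (0.984). Dars, the aspartyl-tRNA synthetase gene, read -0.02, 0.03 and -0.08 on the Sdc4+ arrays, 0.80, 1.12 and 0.51 on the B195AP+, Cspg4- and CD1 Sdc4- arrays and 1.09 on Cspg4+.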

How the data were processed

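Total RNA (10 to 200 ng per the labels' protocols) was amplified with a low-input kit and hybridised to Agilent SurePrint G3 mouse arrays, read in 1 green channel although the labels name biotin. Per the file headers, Feature Extraction 11.5.1.1 subtracted background from the deposited intensity and detrended it, and probe positions are in mm9. The deposited log2 series table, which the submitters' processing notes connect with lumi, was an alternative: its column medians were 5.13 to 5.17 and its values ranked like the intensity (Spearman at least 0.9997), with centring not given in the sources used here.

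Control and outlier spots were dropped, log2 intensity minus the array's 75th percentile was averaged over spots, and probes detected on 3 or more of 7 arrays were tested. A probe counts as detected where at least 0.5 of its spots were well above background. The brightest probe stood for a gene. Limma 3.58.1 (R 4.3.3) fitted 3 group means to 19760 genes, with Benjamini-Hochberg adjustment at 0.05, and was tested on simulated data. Members and lists were chosen with earlier results of these data known. Listed genes were named by size of the Sdc4 difference, up to 4 a list and at least 0.5, and likeness used genes with an SD at least 0.5 times the member's. Pmel and Tyr were named beside them. A few genes that these rules select are not reported here. Arrays of 1 group come from different lines, so p-values rest on that spread, which may be technical. The number of arrays limits the precision. Alternatives were quantile normalization, another percentile set, normexp (offset 50), the series table, other filters, the mean of probes, the streaked spots left out, the line as a block and each array left out.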

Additional observations from a re-analysis of the deposited data

Results flagged for a closer look

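Probes that did not stand for their gene gave a signal outside the main measurement on single arrays. Tfap2a probe 2 read 0.94 on the Cspg4- Sdc4+ array, where probe 1 read -1.89, and was undetected on the other Sdc4+ arrays. Mbp probe 2 read -2.37 on the CD1 Sdc4+ array, where probe 1 was not well above background (-4.02). Mbp probe 3 read -3.0 on the Cspg4+ array and was not detected on the other 6.

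The Sdc4+ minus Sdc4- difference of Mbp probe 2 pointed in opposite directions in 2 lines, -0.24 within the Cspg4 line and 1.02 within CD1. Each side is 1 array, and the difference between the lines was not tested. Groups of 3 arrays are too small for a test of single outlying arrays.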

How the results depend on the processing

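The main fit was not paired, since the labels give every array the same replicate number. Pairing by mouse line, which 2 populations of each Sdc4 group allow, was tried as a block. Of 236 values of the tested members under alternatives, 225 kept their direction, 11 reversed and 0 passed. Some alternatives cannot move a difference, so the kept directions include repeats of the main value. Leaving out an array of neither group of a comparison is of this kind. The other filters, and the mean of probes where no further probe was detected on enough arrays, also repeated it. The L1cam difference of Sdc4+ from Sdc4- became 0.0535 after normexp. The Cspg4+ minus Sdc4- difference of Tfap2a (-0.06) became 0.0147 with the percentile over probes detected on 7 arrays and 0.0093 without streaked spots, 0.31 and 0.17 with the line as a fixed and random block, and ran from -0.23 to 0.0448 as arrays were left out. That of Ngfr (-0.35) became 0.22 with the fixed block and ran from -0.83 to 0.44, and that of Mbp (0.41) became -0.0286 after quantile normalization and -0.0111 in the series table. Of 413 values of listed genes 5 reversed: Cdh22 (0.11 after normexp, -2.26 to 0.20 as arrays were left out) and Crmp1 (0.14 without streaked spots, 0.51 with the fixed block, -1.53 to 0.14). The cause was not tested.

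Genes called for Sdc4+ minus Sdc4- numbered 5 with the random block and 0 to 1 as arrays were left out, the 1 without the CD1 Sdc4- array. For Cspg4+ minus Sdc4- they numbered 1 in the series table, 11 with the random block and 2522 with no filter on dim probes, and for Cspg4+ minus Sdc4+ 27, 74 and 2430. The calls without the filter take in genes not well above background on any array, Erbb3 among them, whose readings have no order. Genes past 2-fold between single arrays numbered 342 in the Cspg4 line, 248 in CD1, and 105 and 394 for Cspg4+ against Cspg4- Sdc4- and Sdc4+ after normexp, against 1662, 872, 1032 and 2141, and 552 in CD1 in the series table.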
